A study of Homo sapiens with 4 samples.

Results

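The comparison is between 2 human liver cancer lines, LM3 from hepatocellular carcinoma and RBE from intrahepatic cholangiocarcinoma, across the transcriptome. Each line was grown in the same medium and transfected for 48 h with a small interfering RNA, either one directed at FENDRR, a long noncoding RNA (si-FENDRR), or a negative control (si-NC). All cells, the si-NC ones included, had therefore been through lipofection. There was 1 messenger RNA library per line and transfection: LM3 with si-FENDRR, LM3 with si-NC, RBE with si-FENDRR and RBE with si-NC. All 4 libraries enter the comparison, 2 per line, and 15930 of the 58174 listed genes were kept because they reached 1 FPKM (fragments per kilobase of gene, scaled to the mapped fragments of the library) in at least 1 library. The line was tested with limma on log2(FPKM + 1), with transfection as a second term, and a gene is called at an adjusted p under 0.05. Every log2 difference below is LM3 minus RBE on that scale, which understates the change of low genes. Where a line is listed at 0 its size rests on the added 1, in medians over lists too. Pairs of FPKM values give si-FENDRR first and si-NC second.

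The 2 libraries of a line stand for 1 culture each under different transfections, and nothing in the labels names further cultures. The p-values therefore speak only to the repeat of the line difference under either small interfering RNA. Each gene has 1 residual degree of freedom, and limma adds a variance shared over genes, for 3.89 in total. An SE or p-value thus rests on that shared variance as well as on the gene's own repeat. The spread behind both may be technical. Sums over all genes ran from 484157 to 508418 FPKM over the 4 libraries, and 13437 to 13682 genes per library were at 1 FPKM or more. The number of reads behind each value is not given by FPKM, so the depth is unknown. RNA came from whole cultures, so fewer cells of a type and less RNA per cell cannot be told apart.

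Hepatocytes and cholangiocytes, the lining cells of the bile ducts, arise from a common progenitor of the embryonic liver. Hepatocytes secrete most plasma proteins, make bile acids and detoxify drugs under factors such as HNF4A and the C/EBP family. Cholangiocytes form a tight keratin-rich epithelium that modifies bile, under factors such as SOX9. Hepatocellular carcinoma and intrahepatic cholangiocarcinoma are the cancers that carry features of the former and of the latter, and lines derived from them keep these features to different degrees.

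Of 7 genes taken as markers of the lines, 4 were higher in LM3 and 3 in RBE. CES1, a liver carboxylesterase (chromosome 16, 55802851 to 55833337, minus strand of hg38), was at 522 and 605 FPKM in LM3 against a listed 0 in RBE. KRT20, a keratin of intestinal epithelium (chromosome 17, 40875941 to 40885227, minus strand), was at 519.8 and 546 FPKM in LM3 against 0.0494 and 0.0493 in RBE (difference 8.99 ± 0.11 (SE) on the log2 scale, limma adjusted p = 0.000584). ALB, serum albumin (chromosome 4, 73397114 to 73421412, plus strand), was at 35.7 and 33.3 FPKM in LM3 against 0.251 and 0.27 in RBE. CEBPA, a factor that drives hepatocyte genes (chromosome 19, 33299934 to 33302564, minus strand), was at 81.8 and 93.1 FPKM in LM3 against 2.89 and 2.69 in RBE. In both genes the libraries of a line lay close together and far from those of the other line. VIM, the intermediate filament of mesenchymal cells (chromosome 10, 17228259 to 17237593, plus strand), was at 820.3 and 897 FPKM in RBE against 3.45 and 3.33 in LM3 (difference -7.61 ± 0.11 (SE) on the log2 scale, limma adjusted p = 0.000584). KRT7, a keratin of bile ducts (chromosome 12, 52232520 to 52252186, plus strand), was at 429 and 391 FPKM in RBE against 7.21 and 6.02 in LM3. CD24, a surface glycoprotein of biliary and progenitor cells (chromosome 6, 106969831 to 106975627, minus strand), was at 95.01 and 112 FPKM in RBE against 0.473 and 0.468 in LM3. The 7 were chosen with earlier results of these data known, so how far apart the lines lay in them is a description. Of all tested genes 58.7% were called in either direction. By GENCODE 29 none of the 7 shares an exon with another listed gene on its strand. In the plot of mean levels in the lines, these markers lie far from the diagonal on both sides.

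**Figure D1:**
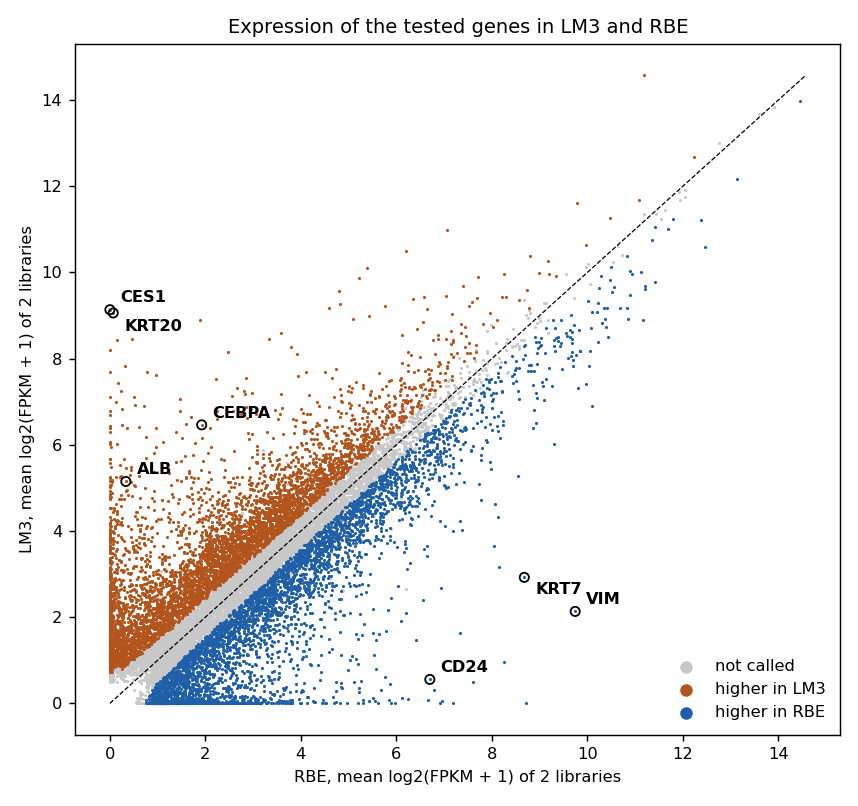
Each point is 1 tested gene, with its mean log2(FPKM + 1) over the 2 RBE libraries on the horizontal axis and over the 2 LM3 libraries on the vertical axis; orange and blue points were called higher in LM3 and in RBE, grey points were not called, and the dashed line marks equal levels. Circled are the 7 markers: CES1, KRT20, CEBPA and ALB lie above the line, and KRT7, VIM and CD24 below it.

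The promoters of 5 genes far apart between the lines are printed, as the sequence next to which hepatocyte, gut and ductal transcripts start, of which 4 were higher in LM3 and CD24 was higher in RBE. Each is the 150 bases just before the RefSeq start of the gene (GRCh38.p14), 5′ to 3′ on the strand of the gene, and capitals mark matches to the motifs searched on both strands. ALB lies at chr4:73404137-73404286 on the plus strand, AFP, which encodes alpha-fetoprotein, at chr4:73436071-73436220 on the plus strand, KRT20 at chr17:40885243-40885392 on the minus strand, CEBPA at chr19:33302535-33302684 on the minus strand and CD24 at chr6:106975628-106975777 on the minus strand.
ALB: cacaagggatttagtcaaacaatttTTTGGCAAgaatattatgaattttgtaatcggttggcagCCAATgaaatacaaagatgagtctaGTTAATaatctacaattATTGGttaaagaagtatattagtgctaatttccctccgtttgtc
AFP: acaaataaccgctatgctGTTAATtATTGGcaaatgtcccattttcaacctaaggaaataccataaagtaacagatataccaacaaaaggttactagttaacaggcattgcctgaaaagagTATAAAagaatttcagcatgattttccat
KRT20: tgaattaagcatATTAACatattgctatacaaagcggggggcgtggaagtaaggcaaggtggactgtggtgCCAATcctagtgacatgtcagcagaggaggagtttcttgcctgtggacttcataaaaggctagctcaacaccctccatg
CEBPA: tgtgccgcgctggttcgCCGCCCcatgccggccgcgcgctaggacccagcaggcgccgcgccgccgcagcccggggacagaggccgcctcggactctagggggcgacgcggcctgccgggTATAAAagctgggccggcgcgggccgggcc
CD24: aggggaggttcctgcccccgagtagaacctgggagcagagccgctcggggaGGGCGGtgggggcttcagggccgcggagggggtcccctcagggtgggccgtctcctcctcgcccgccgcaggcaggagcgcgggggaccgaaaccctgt

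The motifs were spelled as the TATA box TATAAA, the CCAAT box CCAAT, the C/EBP motif TTNNGCAA, the HNF1 motif GTTAAT, the HNF4 motif CAAAGTCCA, the AP-1 motif TGANTCA, the TEAD motif ACATTCC, the antioxidant response element TGACNNNGC and the GC box GGGCGG. The ALB stretch holds a C/EBP match that begins 125 bases before the start, CCAAT boxes at 86 and 44 bases and an HNF1 motif at 61 bases. AFP holds an HNF1 motif, a CCAAT box that follows it after 1 base and a TATA box 29 bases before the start. KRT20 holds an HNF1 motif and a CCAAT box, CEBPA a GC box and a TATA box, and CD24 a single GC box. Over the same 150 bases of the 10291 tested protein-coding genes with a promoter in the table, 2.98% held the C/EBP motif, 1.87% the HNF1 motif, 3.36% the TATA box, 27.5% the CCAAT box and 60.6% the GC box. The remaining motifs were in 8.37% (antioxidant response element), 2.17% (AP-1), 1.04% (TEAD) and 0.0875% (HNF4) of them. The GC content was 31.3% in ALB, 32.7% in AFP and 47.3% in KRT20, against 74.7% in CD24 and 79.3% in CEBPA, and its median over all these stretches was 68%. A match is a description of the letters and not a site in use. Promoters were found for 74.9% and 74.7% of the protein-coding genes called at least 4-fold higher in LM3 and in RBE, under the 80% set for such checks, so a comparison of motifs or base content between these sets is void.

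Most genes differed between the lines. Of the 15930, limma called 9348 (58.7%), with 5147 toward LM3 (32.3%) and 4201 toward RBE (26.4%), and the others were not called. At least 4-fold differences were called in 784 genes toward LM3 (4.92%) and in 544 toward RBE (3.41%), and at least 16-fold differences in 147 and 68. Of the 9348 called genes, 4464 differed by less than 2-fold. The median log2 difference over all tested genes was 0.09, with quartiles at -0.55 and 0.74. The line accounted for 92.6% of the squared deviation of the log2 values from the gene means, transfection for 3.76% and the remainder for 3.66%. By the same fit 0 genes were called for transfection, and 657 had an unadjusted p under 0.05 for that term. Genes next to the filter were ADAM22, just inside with a highest value of 1.00063 FPKM (RBE si-FENDRR), and HOOK1, just outside with 0.999651 FPKM (LM3 si-NC). Fits that leave out 1 library have the line as their only term, since with both terms 3 libraries leave no residual degree of freedom. Such fits gave fewer calls, 3162 toward LM3 and 2674 toward RBE without the si-FENDRR library and 2933 and 2640 without the si-NC library. The lone RBE sample is then assumed to vary like the LM3 pair. With all 4 libraries and the line as the only term, 5250 and 4393 genes were called. Each count or call given below without a library comes from such a fit of 3 libraries, in limma, and the counts stand in the order LM3, RBE. Of the genes given below as not called, CD44, VEGFA, CTGF and PKM passed once libraries were scaled by median-of-ratios (limma adjusted p from 0.0291 to 0.0461).

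Beyond the markers, the 20 genes furthest toward LM3 among abundant protein-coding genes without exon overlap had log2 differences from 6.07 to 9.14 (SE 0.11 to 0.20, adjusted p from 0.000584 to 0.000707 by limma). Among them was the trypsin inhibitor gene SPINK1, at 139 and 135 FPKM in LM3 against 0.314 and 0.511 in RBE. The matrix protein gene SPON2 was at 184 and 229 FPKM in LM3 against 0.43 and 1.06 in RBE. The retinal lipid transporter gene ABCA4 was at 219.7 and 231 FPKM in LM3 against 0.194 and 0.286 in RBE. FERMT3, the kindlin of blood cells that activates integrins, was at 104 and 135 FPKM in LM3 against 0.791 and 0.488 in RBE. MSC, a repressor of muscle genes, was at 128 and 148 FPKM in LM3 against a listed 0 in RBE. UCHL1, a deubiquitinase of neurons, was at 271 and 319.8 FPKM in LM3 against a listed 0 in RBE. In each of these 6 genes both LM3 libraries were above 100 FPKM and both RBE libraries under 1.1.

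The 20 furthest toward RBE ran from 5.37 to 7.61 in size (SE 0.11 to 0.18, adjusted p from 0.000584 to 0.000663 by limma). Among them was YBX3, a cold shock protein that binds RNA, at 160.4 and 131 FPKM in RBE against a listed 0 in LM3. COTL1, which binds filamentous actin, was at 298 and 312 FPKM in RBE against 1.02 and 0.865 in LM3. TNC, the matrix glycoprotein tenascin C, was at 57.4 and 67.2 FPKM in RBE against 0.0127 and 0.0057 in LM3. FOLR1, the folate receptor alpha, was at 54.3 and 58.4 FPKM in RBE against 0 and 0.13 in LM3. Secretory genes were present too: CPE, which trims peptide hormones, was at 49.1 and 46.4 FPKM in RBE against a listed 0 in LM3. IGFBP2, a binding protein of insulin-like growth factors, was at 161 and 160.0 FPKM in RBE against 2.23 and 2.02 in LM3. CST1, a salivary cystatin, was at 55.6 and 59.3 FPKM in RBE against 0.407 and 0.338 in LM3. SERPINA6, the corticosteroid carrier of plasma, was at 97.8 and 103 FPKM in RBE against 0 and 0.13 in LM3. It lies near SERPINA1 on chromosome 14, which is also among the 20. Of the genes named in this paragraph, IGFBP2 alone was above 1.1 FPKM in LM3, and the rest lay below that in both LM3 libraries. Among the 20, the markers VIM and KRT7 were above it too.

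Genes of hepatocytes were split between the lines, with more of them toward LM3. For plasma proteins 13 of 25 tested members were called higher in LM3 and 8 in RBE (median log2 difference 0.89), and 14 of the 39 listed were under the filter in every library. These shares, and those of the lists below, stand beside 32.3% and 26.4% of all tested genes. A gene that is low in 1 line enters a list only through its level in the other, so the counts are a description. CP, the ferroxidase ceruloplasmin, was at 120.4 and 120.1 FPKM in LM3 against 0.473 and 0.426 in RBE. ITIH2, a heavy chain of the inter-alpha inhibitor, was at 84.2 and 81.6 FPKM in LM3 against 3.04 and 3.56 in RBE. AFP, the fetal counterpart of albumin, was at 10.1 and 8.25 FPKM in LM3 against a listed 0 in RBE. Toward RBE was SERPINA1, alpha-1-antitrypsin, at 56.8 and 82.5 FPKM in RBE against 0.0957 and 0.0892 in LM3. AMBP, the precursor of bikunin, was at 59.02 and 67.8 FPKM in RBE against 12.5 and 10.5 in LM3. TTR, the carrier of thyroxine, was at 6.39 and 8.41 FPKM in RBE against 0.883 and 0.81 in LM3. APOH, a phospholipid-binding apolipoprotein, was not called, at 37.5 and 32.2 FPKM in LM3 against 27.6 and 29.8 in RBE. APOA1 and APOB, which carry lipoproteins, were under 1 FPKM in all 4 libraries, and both were chosen after their values were seen.

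For hepatocyte metabolism 13 of 19 tested members were called higher in LM3 and 3 in RBE (median log2 difference 1.94), while 20 of 39 listed genes were under the filter, among them the urea cycle genes OTC and ARG1 and the bile acid enzyme CYP7A1. With a filter on the mean, of at least 1 FPKM over the 4 libraries, 12 and 1 of 16 were called. CYP27A1, which oxidises cholesterol side chains in bile acid synthesis, was at 83.3 and 89.8 FPKM in LM3 against 0.219 and 0.16 in RBE. BAAT, which conjugates bile acids, was at 98.3 and 95.2 FPKM in LM3 against 4.03 and 3.5 in RBE. TDO2, which opens the ring of tryptophan, was at 16.8 and 16.1 FPKM in LM3 against 0 and 0.0147 in RBE. Toward RBE was CYP2E1, at 2.26 and 2.05 FPKM in RBE against 0.253 and 0.106 in LM3. CPS1, the first enzyme of the urea cycle, was at 1.53 and 1.35 FPKM in RBE against 0.0134 and 0 in LM3, both low. PCK2, the mitochondrial form of the gluconeogenic carboxykinase, was not called, at 21.6 and 26.6 FPKM in LM3 against 24.9 and 21.9 in RBE. Among liver transcription factors 11 of 22 tested members were called higher in LM3 and 6 in RBE (median log2 difference 0.33). HNF4A, chosen after its values were seen, was at 8.34 and 9.02 FPKM in LM3 against 2.86 and 2.21 in RBE. CEBPB was at 75.9 and 95.8 FPKM in LM3 against 19.03 and 18.7 in RBE. NR1I2, the xenobiotic receptor PXR, was at 3.29 and 3.35 FPKM in LM3 against 0 and 0.0207 in RBE. Toward RBE, NR5A2 was at 11.7 and 7.78 FPKM in RBE against 0.177 and 0.165 in LM3. NR0B2, the repressor of bile acid synthesis, was at 35.3 and 31.6 FPKM in RBE against 6.93 and 4.74 in LM3. FOXA2, which shares exons with another gene, was not called, at 9 and 23.4 FPKM in LM3 against 16.1 and 15.3 in RBE. Its LM3 libraries lay on either side of both RBE libraries, and it was called toward LM3 without the LM3 si-FENDRR library and toward RBE without the LM3 si-NC library (limma adjusted p = 0.0449 and 0.033). Set against their labels, LM3 thus had ALB, AFP and CEBPA with APOA1, APOB, OTC and CYP7A1 under the filter, and RBE, labelled as cholangiocarcinoma, had SERPINA1 and SERPINA6 at higher levels than LM3.

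Cholangiocyte markers were called toward RBE more often than toward LM3, while genes of biliary transport, given further on, were not. For cholangiocyte markers 1 of 20 tested members were called higher in LM3 and 13 in RBE (median log2 difference -1.73), and 5 of 25 listed genes were under the filter. EPCAM, the epithelial adhesion molecule that hepatocytes lack, was at 31.2 and 24.9 FPKM in RBE against 0.318 and 0.236 in LM3. BICC1 and PKHD1 are genes of cystic kidney and bile duct disease. BICC1 was at 21.3 and 20.3 FPKM in RBE against a listed 0 in LM3. PKHD1 was at 3.61 and 3.8 FPKM in RBE against a listed 0 in LM3. The ductal factor SOX9 was at 35.6 and 31.8 FPKM in RBE against 6.59 and 7.13 in LM3. KRT19 was at 467 and 466 FPKM in RBE against 156 and 181 in LM3. Both were present in LM3 too. FXYD2, the gamma subunit of the sodium pump, was at 429.8 and 410.2 FPKM in RBE against a listed 0 in LM3 and shares exons with the readthrough FXYD6-FXYD2. The 1 marker called toward LM3 was SPP1, osteopontin, at 1118 and 909 FPKM in LM3 against 515 and 504 in RBE (difference 0.98 ± 0.12 (SE) on the log2 scale). CLDN4, given among the junctions, joined it without LM3 si-NC. The SPP1 call was lost without either RBE library, with adjusted p of 0.0698 without si-FENDRR and 0.074 without si-NC by limma. BICC1, PKHD1, SOX9 and KRT19 were chosen after their values were seen.

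Keratins and junctions were likewise more often higher in RBE. For keratins 1 of 10 tested members were called higher in LM3 and 6 in RBE (median log2 difference -1.22), with KRT18, the partner of KRT8 in simple epithelia, at 887 and 901 FPKM in RBE against 158 and 159.9 in LM3. KRT80 was at 100.1 and 52.9 FPKM in RBE against 3.76 and 2.82 in LM3. KRT8, chosen after its values were seen, was at 2028 and 1867 FPKM in RBE against 1004 and 989 in LM3, and KRT20 was the only keratin called toward LM3. For epithelial junctions 4 of 25 tested members were called higher in LM3 and 14 in RBE (median log2 difference -0.66). Without RBE si-FENDRR 4 and 9 were called. The pore-forming claudin CLDN2 was at 198 and 189.7 FPKM in RBE against 0.552 and 0.262 in LM3. The barrier claudin CLDN1 was at 55.9 and 52.9 FPKM in RBE against 2.77 and 1.76 in LM3. CLDN3 was at 5.41 and 5.72 FPKM in RBE against 0.295 and 0.3 in LM3. Toward LM3 was PKP3, a desmosomal plakophilin, at 18.3 and 29.9 FPKM in LM3 against 2.85 and 2.69 in RBE. E-cadherin, CDH1, was low in both, at 8.04 and 8.56 FPKM in RBE against 2.58 and 3.31 in LM3. N-cadherin, CDH2, was at 37.8 and 37.3 FPKM in RBE against 16.7 and 13.8 in LM3. Both cadherins were chosen after their values were seen, and the CDH1 call was lost without the RBE si-NC library (adjusted p = 0.0527 by limma). CLDN4 was not called, and its LM3 libraries lay on either side of RBE, at 179 and 0.515 FPKM in LM3 against 50.8 and 66.7 in RBE. It was called toward LM3 without the LM3 si-NC library and toward RBE without the LM3 si-FENDRR library (limma adjusted p = 0.0392 and 0.0137).

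A group of genes that neither label names was mostly higher in LM3. For genes of intestinal and gastric epithelium 14 of 17 tested members were called higher in LM3 and 1 in RBE (median log2 difference 3.34). LGALS4, the galectin of gut brush borders, was at 329 and 372 FPKM in LM3 against 0.479 and 0.284 in RBE. S100P, a calcium-binding protein of stomach, was at 337 and 350.1 FPKM in LM3 against 0.163 and 0.0666 in RBE. AGR2, a disulfide isomerase of mucus-secreting cells, was at 209.8 and 180.0 FPKM in LM3 against 1.25 and 0.695 in RBE. ANXA10, an annexin of gastric epithelium, was at 67.3 and 60.98 FPKM in LM3 against 0.127 and 0.103 in RBE. CDH17, the intestinal cadherin chosen after its values were seen, was at 46.6 and 53.1 FPKM in LM3 against 3.78 and 4.25 in RBE. OLFM4, of intestinal stem cells, was the 1 member called toward RBE, at 3.64 and 3.03 FPKM in RBE against a listed 0 in LM3. Another 17 of the 34 listed genes were under the filter in all 4 libraries, among them the mucin genes MUC2, MUC5AC and MUC6. Of 16 pancreatic markers 3 were tested, with NKX2-2 called toward LM3 and CEL and PDX1 toward RBE (median log2 difference -0.83). NKX2-2, a factor of endocrine cells, was at 9.38 and 8.97 FPKM in LM3 against a listed 0 in RBE, and CEL, a lipase, was at 2.05 and 1.95 FPKM in RBE against 0.246 and 0.358 in LM3. In the plot of identity genes by library, no LM3 value of a gut gene shown overlaps an RBE value. The gut genes there were picked by hand, and OLFM4 is not among them.

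**Figure D2:**
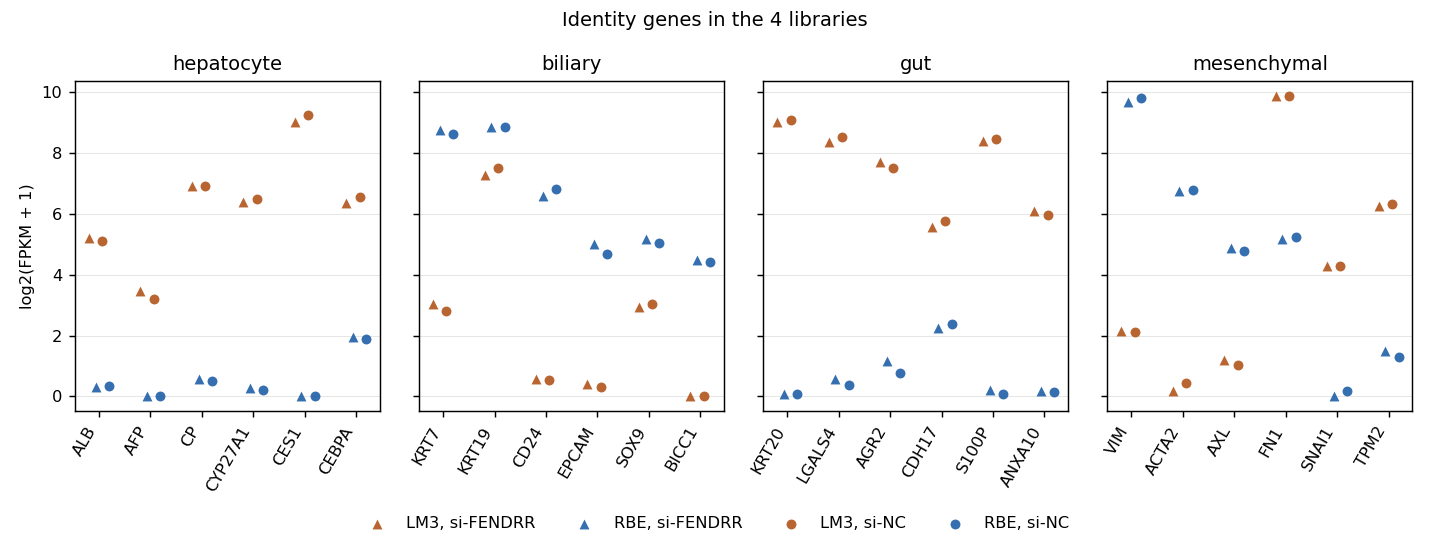
The vertical axis is log2(FPKM + 1) in each of the 4 libraries (triangles, si-FENDRR; circles, si-NC) for 6 genes of each group; orange is LM3 and blue is RBE. In each gene shown both LM3 values lie on one side of both RBE values. The hepatocyte and gut genes shown were higher in LM3, the biliary ones higher in RBE and the mesenchymal ones divided. The genes were picked by hand from larger groups. Members that went the other way, such as SERPINA1, SPP1 and OLFM4, are not shown.

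Genes of the mesenchymal state went both ways. For mesenchymal genes and factors 11 of 22 tested members were called higher in LM3 and 9 in RBE (median log2 difference 0.57). FN1, fibronectin, was at 939 and 932 FPKM in LM3 against 35.2 and 37.2 in RBE (difference 4.65 ± 0.10 (SE) on the log2 scale, limma adjusted p = 0.000584). SNAI1, the Snail repressor of E-cadherin, was at 18.4 and 18.7 FPKM in LM3 against 0 and 0.124 in RBE. The tropomyosin gene TPM2 was at 75.6 and 78.9 FPKM in LM3 against 1.78 and 1.45 in RBE. ACTA2, smooth muscle actin, was at 108 and 111 FPKM in RBE against 0.139 and 0.362 in LM3. AXL, a receptor kinase of invasive cells, was at 28.3 and 26.7 FPKM in RBE against 1.31 and 1.05 in LM3. ZEB1 was not called, at 3.51 and 4.96 FPKM in LM3 against 3.35 and 2.63 in RBE. VIM, ACTA2 and AXL were thus higher in RBE, and FN1, SNAI1 and TPM2 in LM3. For basement membrane, integrins and matrix proteases 9 of 35 tested members were called higher in LM3 and 17 in RBE (median log2 difference -0.52). COL4A2 and COL4A1, on chromosome 13, encode the chains of collagen IV. COL4A2 was at 21.3 and 24.7 FPKM in RBE against 2.26 and 1.41 in LM3. COL4A1 was at 3.62 and 4.29 FPKM in RBE against a listed 0 in LM3. The integrin subunit gene ITGA3 was at 171 and 167 FPKM in RBE against 35.8 and 33.2 in LM3. TIMP3, an inhibitor of matrix proteases, was at 27.01 and 28.2 FPKM in LM3 against 0.337 and 0.249 in RBE. CD44, the hyaluronan receptor, was not called, at 105.4 and 109 FPKM in LM3 against 139.8 and 133 in RBE.

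Actin genes were divided too. For the actin cytoskeleton 12 of 41 tested members were called higher in LM3 and 15 in RBE (median log2 difference -0.13). CAPG, which caps actin filaments, was at 264 and 304 FPKM in LM3 against 4.78 and 4.37 in RBE. MSN, moesin, was at 188 and 185 FPKM in LM3 against 24.7 and 23.3 in RBE. GSN, the severing protein gelsolin, was at 53.6 and 50.2 FPKM in RBE against 12.5 and 14.9 in LM3. TPM1 was at 229 and 247 FPKM in RBE against 63.6 and 68.4 in LM3, so the tropomyosin genes TPM1 and TPM2 differed in opposite directions. TMSB4X, the main binder of free actin, was at 2679 and 2765 FPKM in RBE against 825 and 933 in LM3 and was chosen after its values were seen. For S100 proteins and annexins 6 of 21 tested members were called higher in LM3 and 10 in RBE (median log2 difference -0.46). S100A4 was at 1324 and 1570.0 FPKM in LM3 against 71.2 and 73.5 in RBE. S100A11 was at 3327 and 2922 FPKM in LM3 against 872 and 889 in RBE. Toward RBE, ANXA3 was at 50.3 and 47.7 FPKM in RBE against 2.6 and 1.6 in LM3. S100A16 was at 119 and 118 FPKM in RBE against 37.5 and 37.02 in LM3.

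Oncofetal, germline and homeobox genes were called mostly toward LM3, and progenitor markers were divided. For stem and progenitor markers 5 of 12 tested members were called higher in LM3 and 4 in RBE (median log2 difference -0.18). The pluripotency factor SOX2 was at 12.7 and 14.02 FPKM in LM3 against a listed 0 in RBE. ICAM1, an adhesion molecule of inflamed epithelium, was at 118 and 109 FPKM in LM3 against 0.284 and 0.109 in RBE. The aldehyde dehydrogenases ALDH1A1 and ALDH1A3 differed in opposite directions. ALDH1A1 was at 361 and 392 FPKM in LM3 against 64.4 and 72.5 in RBE. ALDH1A3, which shares exons with another gene, was at 118 and 123 FPKM in RBE against a listed 0 in LM3. For oncofetal genes 5 of 9 tested members were called higher in LM3 and 0 in RBE (median log2 difference 1.06), and 0 had an unadjusted p under 0.05 toward RBE by limma. IGF2BP1, a fetal RNA-binding protein, was at 12.4 and 12.4 FPKM in LM3 against 0.0444 and 0.165 in RBE. H19, an imprinted noncoding RNA of fetal liver that overlaps another model, was at 16.6 and 16.1 FPKM in LM3 against 0 and 0.0195 in RBE. GPC3, the proteoglycan of many hepatocellular carcinomas, was under the filter, with a listed 0 in LM3 and 0.206 and 0.352 FPKM in RBE, and was chosen after its values were seen.

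For cancer-testis antigens, which are silent outside the germline and some tumors, 9 of 9 tested members were called higher in LM3 and 0 in RBE (median log2 difference 3.94), and 29 of the 38 listed were under the filter. By limma 0 of the 9 had an unadjusted p under 0.05 toward RBE. SSX1 was at 68.5 and 63.7 FPKM in LM3 against a listed 0 in RBE. MAGEA3 was at 12.6 and 14.8 FPKM in LM3 against a listed 0 in RBE. SPANXA1 was at 176 and 166 FPKM in LM3 against 0 and 0.248 in RBE. All 9 tested members lie on the X chromosome, where 59.3% of tested genes were called toward LM3, and SPANX and MAGEA genes have near-identical copies, so the share of each copy is uncertain. For HOX genes, which record position along the body, 10 of 15 tested members were called higher in LM3 and 1 in RBE (median log2 difference 1.01). The counts were 6 and 1 without RBE si-FENDRR and 5 and 1 without RBE si-NC. HOXB7 was at 9.55 and 8.18 FPKM in LM3 against a listed 0 in RBE. HOXA2 was at 4.92 and 4.23 FPKM in LM3 against 0.0215 and 0.0231 in RBE. HOXA3, which overlaps other models, was at 14.4 and 13.8 FPKM in LM3 against 0.121 and 0.127 in RBE. HOXB3, which also overlaps other models, was the 1 member toward RBE, at 5.53 and 5.21 FPKM in RBE against 1.18 and 1.48 in LM3. For imprinted genes 5 of 12 tested members were called higher in LM3 and 2 in RBE (median log2 difference 0.26). Without LM3 si-NC these were 3 and 3. NDN, a regulator of neuronal growth, was at 23.2 and 26.7 FPKM in RBE against a listed 0 in LM3. CDKN1C, an inhibitor of cyclin-dependent kinases, was at 4.62 and 4.72 FPKM in LM3 against 0.124 and 0.0448 in RBE.

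Among receptor tyrosine kinases and their ligands, 6 of 34 tested members were called higher in LM3 and 20 in RBE (median log2 difference -1.04). MET, the receptor of hepatocyte growth factor, differed most toward LM3, at 1172 and 1023 FPKM in LM3 against 42.1 and 39.8 in RBE (difference 4.71 ± 0.10 (SE) on the log2 scale, limma adjusted p = 0.000584). FGFR1, a receptor of fibroblast growth factors, was at 45.2 and 55.1 FPKM in RBE against 0.255 and 0.217 in LM3. The EGFR ligand TGFA was at 29.6 and 32.1 FPKM in RBE against 0.885 and 0.564 in LM3. PDGFB was at 11.1 and 11.5 FPKM in RBE against 0.152 and 0.189 in LM3. ERBB2 was at 20.8 and 22.3 FPKM in RBE against 3.61 and 4.32 in LM3. ERBB3, which overlaps another gene, was at 22.6 and 26.98 FPKM in LM3 against 8.72 and 8.51 in RBE, so that these partner receptors differed in opposite directions. VEGFA was not called, at 17.6 and 18.3 FPKM in LM3 against 24.4 and 21.7 in RBE.

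In the TGF-beta and BMP pathway 7 of 29 tested members were called higher in LM3 and 9 in RBE (median log2 difference -0.23). ID1 and ID3, targets of BMP signals, were higher in LM3. ID1 was at 549 and 643 FPKM in LM3 against 58.99 and 47.5 in RBE. ID3 was at 316 and 477 FPKM in LM3 against 11.5 and 10.5 in RBE. So was the ligand BMP2, at 15.4 and 17.2 FPKM in LM3 against 0.758 and 0.666 in RBE. PMEPA1, a TGF-beta target that dampens the pathway, was at 121 and 126 FPKM in RBE against 0.0193 and 0.0448 in LM3. The ligand TGFB3 was at 4.33 and 6.06 FPKM in RBE against 0.508 and 0.259 in LM3. GDF15, a stress-induced cytokine of the family, was not called, at 186 and 166 FPKM in LM3 against 213 and 198 in RBE. For targets and partners of YAP, the effector of the Hippo pathway, 5 of 25 tested members were called higher in LM3 and 16 in RBE (median log2 difference -1.09). Toward LM3 were YAP1 itself, its DNA-binding partners TEAD2 and TEAD3, and F3 and GADD45A, with log2 differences from 0.54 to 1.07. None of these 5 calls held without RBE si-NC (limma adjusted p from 0.0597 to 0.0684), and 5 members had an unadjusted p under 0.05 toward LM3 in that fit. The counts of the list were 3 and 12 without LM3 si-NC, 2 and 13 without RBE si-FENDRR and 0 and 15 without RBE si-NC. NUAK2 was at 20.2 and 20.8 FPKM in RBE against 0.644 and 0.682 in LM3. FJX1 was at 16.1 and 15.03 FPKM in RBE against 1.55 and 1.13 in LM3. ANKRD1, chosen after its values were seen, was at 36.8 and 32.98 FPKM in RBE against 5.27 and 4 in LM3. CTGF was not called, at 37.96 and 32.6 FPKM in LM3 against 44.2 and 44.2 in RBE. Its relative CYR61, chosen after its values were seen, was at 39.98 and 33.03 FPKM in RBE against 21.5 and 16.9 in LM3, a call lost without any 1 of 3 libraries (adjusted p = 0.0742 without LM3 si-NC, 0.102 without RBE si-FENDRR and 0.0691 without RBE si-NC by limma). In the Wnt and Notch pathways 13 of 26 tested members were called higher in LM3 and 5 in RBE (median log2 difference 0.51). The Wnt antagonist DKK1 was at 18.8 and 16.5 FPKM in LM3 against 1.47 and 1.28 in RBE. AXIN2, a feedback target that overlaps another gene, was at 8.21 and 7.82 FPKM in LM3 against 0.718 and 0.839 in RBE. The receptor FZD2 was at 31.5 and 31.7 FPKM in RBE against 0.925 and 1.1 in LM3. The ligand WNT7B was at 14.2 and 14.04 FPKM in RBE against 1.5 and 1.4 in LM3. JAG1, a Notch ligand, was not called, at 32.6 and 29.8 FPKM in LM3 against 36.3 and 36.4 in RBE.

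Targets of NRF2, the factor that answers oxidative and electrophilic stress, were the metabolic list furthest toward LM3. Of 33 members, 29 were called higher in LM3 and 0 in RBE by limma (median log2 difference 2.05), against 32.3% and 26.4% of all genes tested, and 0 had an unadjusted p under 0.05 toward RBE. NQO1, a quinone reductase, was at 487 and 479 FPKM in LM3 against 34.8 and 31.9 in RBE. AKR1B10, an aldo-keto reductase, was at 1982 and 2047 FPKM in LM3 against 141 and 126 in RBE (difference 3.91 ± 0.11 (SE) on the log2 scale, limma adjusted p = 0.000639). TXNRD1, thioredoxin reductase, was at 977 and 928 FPKM in LM3 against 221 and 194 in RBE. ALDH3A1, an aldehyde dehydrogenase, was at 66.2 and 74.1 FPKM in LM3 against 2.94 and 2.69 in RBE. NR0B1, a nuclear receptor without a DNA-binding domain, was at 29.3 and 26.01 FPKM in LM3 against a listed 0 in RBE. AKR1C2 was at 323 and 378 FPKM in LM3 against 7.81 and 10.7 in RBE, though it shares sequence with AKR1C1. KEAP1, which holds NRF2 down and is not among the 33, was at 20.4 and 20.7 FPKM in RBE against 5.42 and 6.01 in LM3. Whether its level bears on the targets was not tested. The members not called were GCLC, ME1, ABCC3 and CBR1, and the LM3 libraries of CBR1 lay on either side of both RBE libraries, at 219 and 58.9 FPKM in LM3 against 73.3 and 70.4 in RBE. CBR1 was called toward LM3 without the LM3 si-NC library (limma adjusted p = 0.0138). NQO1, AKR1B10 and TXNRD1 were chosen after their values were seen.

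For glycolysis and lactate 8 of 25 tested members were called higher in LM3 and 8 in RBE (median log2 difference 0.16). Calls toward LM3 fell without any 1 library, to 5 and 8 without LM3 si-FENDRR, 5 and 7 without LM3 si-NC, 4 and 6 without RBE si-FENDRR and 4 and 6 without RBE si-NC. LDHB, the lactate dehydrogenase subunit of heart, was at 498 and 458 FPKM in LM3 against 2.25 and 3.22 in RBE. SLC16A3, a lactate exporter, overlaps another gene and was at 70.5 and 86.4 FPKM in LM3 against 8.38 and 9.19 in RBE. Enzymes of the pathway went both ways. ENO2, an enolase, was at 36.2 and 42.1 FPKM in LM3 against 12.4 and 15.7 in RBE. PGAM1 was at 235 and 228 FPKM in RBE against 82.5 and 84.7 in LM3. ALDOA was at 704 and 685 FPKM in RBE against 334 and 327 in LM3. PKM, pyruvate kinase, was not called, at 812 and 901 FPKM in LM3 against 1102 and 1035 in RBE. For cholesterol synthesis and uptake 4 of 29 tested members were called higher in LM3 and 16 in RBE (median log2 difference -0.63). HSD17B7 and MVD act in the synthesis pathway. HSD17B7 was at 56.1 and 58.3 FPKM in RBE against 13.1 and 14.3 in LM3. MVD was at 142 and 137 FPKM in RBE against 38.9 and 40.8 in LM3. NSDHL, of the same pathway and on the X chromosome, was at 86.1 and 84.3 FPKM in LM3 against a listed 0 in RBE. SCARB1, which takes up lipoprotein cholesterol, was at 237 and 236 FPKM in LM3 against 70.9 and 66.7 in RBE. FDPS was not called, at 299 and 324 FPKM in LM3 against 358 and 353 in RBE.

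For fatty acid and lipid droplet genes 16 of 35 tested members were called higher in LM3 and 8 in RBE (median log2 difference 0.31). These counts were 16 and 5 with each library set to the same sum, 15 and 5 with no filter, 15 and 5 without LM3 si-FENDRR, 12 and 3 without RBE si-FENDRR and 11 and 4 without RBE si-NC. The fatty acid transporter CD36 was at 9.43 and 6.6 FPKM in LM3 against 0.0118 and 0 in RBE. The lipid droplet protein gene CIDEC was at 15.6 and 17.9 FPKM in LM3 against 0.56 and 0.596 in RBE. MTTP, which loads lipoproteins, was at 6.59 and 5.73 FPKM in LM3 against 0.0801 and 0.045 in RBE. ACLY, which makes cytosolic acetyl-CoA, was at 239 and 231 FPKM in RBE against 65.3 and 70.6 in LM3. LPIN1 was at 28.2 and 34.03 FPKM in RBE against 6.44 and 5.53 in LM3. For transport and secretion of biliary epithelium 11 of 23 tested members were called higher in LM3 and 5 in RBE (median log2 difference 0.57). They were 6 and 5 with no filter, 6 and 4 without RBE si-FENDRR and 6 and 5 without RBE si-NC. The exporters ABCG2 and ABCC2 clear drugs and conjugates. ABCG2 was at 38.1 and 36.8 FPKM in LM3 against 0.132 and 0.198 in RBE. ABCC2 was at 107 and 103 FPKM in LM3 against 18.1 and 16.7 in RBE. The carbonic anhydrase CA12 was at 57.7 and 49.7 FPKM in LM3 against 2.16 and 2.56 in RBE. Beside these counts, 32.3% of all tested genes were called toward LM3 and 26.4% toward RBE. Summed over the listed genes, levels were 1147 and 896 FPKM in LM3 against 1497 and 1541 in RBE.

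In the list of metallothioneins and iron 9 of 18 tested members were called higher in LM3 and 5 in RBE (median log2 difference 0.58). FTL, the light chain of ferritin, was at 24237 and 24535 FPKM in LM3 against 2344 and 2321 in RBE. The difference was 3.39 ± 0.09 (SE) on the log2 scale (limma adjusted p = 0.000584). FTL was the most abundant nuclear protein-coding gene of LM3, with 4.87% and 5.07% of all FPKM there. Its partner FTH1, chosen after its values were seen, was at 2733 and 3976 FPKM in LM3 against 2046 and 2308 in RBE. FTH1 was called toward LM3, and the call was lost without any 1 of LM3 si-NC, RBE si-FENDRR and RBE si-NC (limma adjusted p = 0.173, 0.344 and 0.248), with no filter (0.139) and without the transfection term (0.061). HAMP, the iron hormone hepcidin, was at 13.9 and 14.6 FPKM in LM3 against a listed 0 in RBE. The transferrin receptor TFRC was at 78.2 and 74.8 FPKM in LM3 against 16.1 and 19.6 in RBE. The metallothioneins MT1E and MT2A were higher in RBE. MT1E was at 64.9 and 52.01 FPKM in RBE against a listed 0 in LM3. MT2A was at 72.7 and 62.5 FPKM in RBE against 2.57 and 2.99 in LM3, though these paralogs share sequence. LCN2, which binds siderophores, was not called, at 108 and 110.0 FPKM in LM3 against 94.2 and 125 in RBE.

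Growth genes were divided by process. Of 54 ribosomal protein genes, 0 were called higher in LM3 and 50 in RBE by limma (median log2 difference -0.97), and 0 had an unadjusted p under 0.05 toward LM3. Toward RBE 26 were called without RBE si-FENDRR and 27 without RBE si-NC. RPS7 was at 969 and 1029.7 FPKM in RBE against 163 and 177 in LM3. RPS28 was at 303 and 270.2 FPKM in RBE against 67.7 and 74.1 in LM3. RPL23, which overlaps another gene, was 1 of 4 not called, at 448 and 232 FPKM in LM3 against 286 and 479.6 in RBE, and many members have processed pseudogenes. Nuclear genes of the respiratory chain had 2 and 19 of 34 called (median -0.52), and 1 and 10 without RBE si-FENDRR and 1 and 9 without RBE si-NC. ATP5B of ATP synthase was at 548 and 574 FPKM in RBE against 179.6 and 189 in LM3. COX7A2 of cytochrome oxidase was at 142 and 146 FPKM in RBE against 42.9 and 44.8 in LM3. Genes of the mitochondrial genome had 2 and 2 of 13 called (median -0.06), MT-ND5 and MT-ND4L toward LM3 and MT-ND3 and MT-CO3 toward RBE. All 4 calls were lost without RBE si-NC (limma adjusted p from 0.0619 to 0.44), without LM3 si-FENDRR (0.0596 to 0.17) and with no filter (0.0501 to 0.411). An unadjusted p under 0.05 remained for 1 member toward RBE in each of these fits, and for 1 toward LM3 with no filter. The counts were 1 and 0 without LM3 si-NC and 0 and 1 without RBE si-FENDRR, and a constant prior variance, the filter on the mean and a pseudocount of 0.1 each left 1 and 1, with 1 and 2 under median-of-ratios scaling. Their share of all FPKM was 21.6% and 18.8% in LM3 and 21.8% and 24.0% in RBE. MT-CO2 was not called, at 15865 and 13524 FPKM in LM3 against 14493 and 16285 in RBE.

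Genes of cell division were more often higher in LM3. For mitosis 21 of 30 tested members were called higher in LM3 and 1 in RBE (median log2 difference 0.88). Calls toward LM3 fell without any 1 library, as over all tested genes. The 1 called toward RBE was CDC20. By limma 0 were called toward RBE without RBE si-FENDRR or without RBE si-NC (1 with an unadjusted p under 0.05 in each), with no filter or a constant prior variance (2 in each) and with the same sum in each library (1). CENPA, the centromeric histone, overlaps another gene and was at 31.7 and 27.5 FPKM in LM3 against 4.84 and 4.38 in RBE. NDC80, of the outer kinetochore, was at 14.2 and 14.7 FPKM in LM3 against 3.44 and 3.16 in RBE. BIRC5, survivin, was at 24.6 and 26.98 FPKM in LM3 against 9.44 and 9.02 in RBE. The topoisomerase gene TOP2A, chosen after its values were seen, was at 39.5 and 37.8 FPKM in LM3 against 22.5 and 20.3 in RBE. CCNB1 was not called, at 44.5 and 48.5 FPKM in LM3 against 53.3 and 55.6 in RBE. For replication 17 of 30 tested members were called higher in LM3 and 4 in RBE (median log2 difference 0.58). Those counts were 10 and 3 with no filter, 9 and 5 without LM3 si-FENDRR, 11 and 3 without LM3 si-NC, 9 and 2 without RBE si-FENDRR and 8 and 1 without RBE si-NC. RFC4 of the clamp loader was at 34.4 and 28.4 FPKM in LM3 against 8.85 and 8.5 in RBE. The helicase subunit MCM7 was at 143 and 135 FPKM in LM3 against 48.9 and 48.8 in RBE. MCM3 of the same helicase was at 62.7 and 54.8 FPKM in RBE against 26.9 and 24.1 in LM3. PCNA was not called, at 101 and 80.4 FPKM in LM3 against 106 and 82.4 in RBE.

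For cell cycle inhibitors, cyclins and p53 targets 7 of 31 tested members were called higher in LM3 and 17 in RBE (median log2 difference -0.79). Without RBE si-NC the counts were 4 and 15. CDKN2A and CDKN2B, neighbours on chromosome 9, encode inhibitors of cyclin-dependent kinases. CDKN2A was at 72.1 and 29.9 FPKM in LM3 against a listed 0 in RBE. CDKN2B was at 5.96 and 5.56 FPKM in LM3 against a listed 0 in RBE. RB1, the protein that these inhibitors keep active, was at 11.8 and 11.5 FPKM in RBE against 1.56 and 1.12 in LM3. CDKN1A, the p53 target p21, was at 219 and 218 FPKM in RBE against 47.9 and 49.7 in LM3 and was chosen after its values were seen. The p53 targets FAS and TP53I3 were higher in RBE too. FAS was at 11.3 and 21.1 FPKM in RBE against 0.244 and 0.2 in LM3. TP53I3 was at 18.98 and 15.9 FPKM in RBE against 2.75 and 2.24 in LM3. MDM2, which overlaps another gene, was at 27.8 and 20.2 FPKM in RBE against 4.58 and 4.8 in LM3. BAX was not called, at 133 and 134 FPKM in LM3 against 136 and 138 in RBE. Among genes mutated in liver cancers 13 of 37 tested members were called higher in LM3 and 9 in RBE (median log2 difference 0.15), and TSC2 was not called, at 33.1 and 34.1 FPKM in LM3 against 29.8 and 29.3 in RBE. In that list 7 and 7 without RBE si-FENDRR and 6 and 7 without RBE si-NC were called.

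Of the immune lists, interferon and cytokine genes were called toward LM3 more often than toward RBE, and antigen presentation and acute-phase genes were divided. For the interferon response 15 of 28 tested members were called higher in LM3 and 6 in RBE (median log2 difference 0.69). Calls toward LM3 fell without any 1 library. The antiviral synthetases OAS1 and OAS2 were higher in LM3. OAS1 was at 104 and 103 FPKM in LM3 against 5.51 and 9.74 in RBE. OAS2 was at 20.5 and 22.5 FPKM in LM3 against 0.0548 and 0.063 in RBE. Toward RBE was IFIT1, an interferon-induced protein, at 3.42 and 3.19 FPKM in RBE against 0.904 and 0.833 in LM3. IRF1 was not called, at 10.9 and 6.7 FPKM in LM3 against 11.1 and 8.54 in RBE. In antigen presentation 9 of 24 tested members were called higher in LM3 and 7 in RBE (median log2 difference 0.22). These were 5 and 4 without RBE si-FENDRR and 7 and 4 without RBE si-NC. MICB and ULBP2 are ligands of the killer cell receptor NKG2D. MICB was at 11.7 and 11.8 FPKM in LM3 against 0.23 and 0.759 in RBE. ULBP2 was at 7.21 and 7.46 FPKM in LM3 against 0.706 and 0.618 in RBE. HLA-DRB1 was at 2.11 and 2.81 FPKM in RBE against a listed 0 in LM3. For cytokines, chemokines and receptors 20 of 32 tested members were called higher in LM3 and 7 in RBE (median log2 difference 1.02). Here too calls toward LM3 fell without any 1 library, and those toward RBE fell without either LM3 library. The chemokines CCL20 and CXCL2 attract leukocytes. CCL20 was at 37.9 and 27.4 FPKM in LM3 against 0.429 and 0.44 in RBE. CXCL2 was at 49.1 and 32.8 FPKM in LM3 against 0.983 and 0.799 in RBE. CCL2 was at 8.14 and 7.1 FPKM in RBE against a listed 0 in LM3. The chemokine receptor CXCR4 was at 4.05 and 4.53 FPKM in RBE against a listed 0 in LM3. For acute-phase genes 4 of 12 tested members were called higher in LM3 and 4 in RBE (median log2 difference 0.08). C1R, a complement protease that overlaps another gene, was at 135 and 131 FPKM in LM3 against 1.77 and 1.76 in RBE. NNMT was at 16.1 and 13.9 FPKM in RBE against 0.453 and 0 in LM3. The sign of the acute-phase median turned with the scaling, to -0.01 by median-of-ratios.

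**Figure D3:**
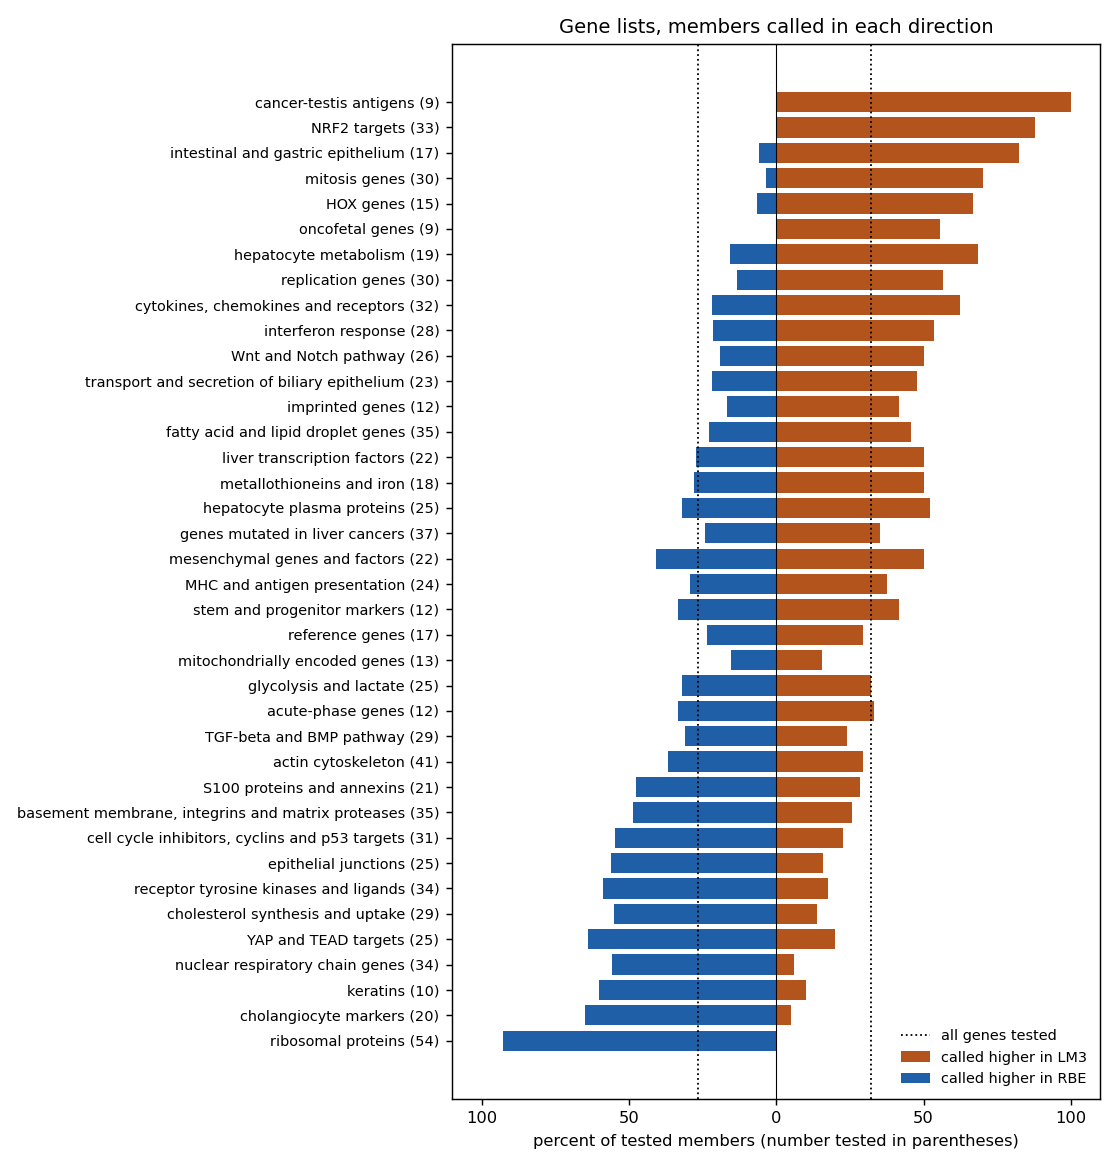
Each bar shows, for 1 list with at least 9 tested members, the percent of its tested members called higher in LM3 (orange, to the right) and in RBE (blue, to the left); dotted lines mark 32.3% and 26.4%, the shares of all tested genes. Cancer-testis antigens and NRF2 targets lie furthest toward LM3, and ribosomal proteins and cholangiocyte markers furthest toward RBE.

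Markers of other cell types were low, with exceptions on both sides. Of 18 leukocyte markers 4 were tested, 3 called higher in LM3 and 1 in RBE, and their summed levels were 87.9 and 88.6 FPKM in LM3, with 28.95 and 28.5 in RBE. CD68, a lysosomal protein whose gene overlaps another, made up most of the sum in LM3, at 60.1 and 62.2 FPKM in LM3 against 14.2 and 13.9 in RBE. CD79A, of the B cell receptor, was at 16.8 and 19.2 FPKM in LM3 against 0.034 and 0.199 in RBE. The call of ITGAM, an integrin of myeloid cells, was lost without either RBE library (limma adjusted p = 0.0932 without si-FENDRR and 0.0841 without si-NC). LYZ, lysozyme, was at 12.7 and 12.5 FPKM in RBE against 0.128 and 0 in LM3. The defining genes CD3D, CD3E and MS4A1 were listed at 0 in all 4 libraries, and PTPRC in both LM3 libraries. Endothelial markers had 1 of 12 tested, PECAM1 at 3.1 and 3.86 FPKM in LM3 against 0.401 and 0.408 in RBE. CLEC14A and TIE1 were listed at 0 in all 4 libraries, and the 12 markers had sums of 4.34 and 4.71 FPKM in LM3, with 0.954 and 0.739 in RBE. Stellate and fibroblast markers had 7 of 13 tested, with 2 called toward LM3 and 4 toward RBE (median log2 difference -1.40; 1 and 3 of 5 with the filter on the mean) and sums of 33.4 and 29.3 FPKM in LM3, with 15.8 and 16.2 in RBE. LUM, lumican, which made up most of the LM3 sum, was at 28.4 and 24.9 FPKM in LM3 against a listed 0 in RBE. PDGFRA, which overlaps another gene, was at 4.11 and 4.08 FPKM in RBE against a listed 0 in LM3. POSTN was listed at 0 in all 4 libraries. Erythroid markers had 0 of 10 above the filter. Neural and neuroendocrine genes had 8 of 27 tested, with UCHL1, MAP2 and ENO2 called toward LM3 and CHGB, NCAM1 and SCG5 toward RBE (median log2 difference 0.13). Of 17 reference genes often used for scaling, 5 were called higher in LM3 and 4 in RBE, against 58.7% of all genes tested in either direction, and PPIA was not called, at 1137 and 1112 FPKM in LM3 against 989.6 and 1006 in RBE. Of the reference genes 3 and 2 without LM3 si-FENDRR, 3 and 3 without LM3 si-NC, 3 and 2 without RBE si-FENDRR and 3 and 2 without RBE si-NC were called. Whether these markers bear on the results above was not tested.

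Some genes were present in 1 line and near absent in the other. With at least 10 FPKM in both libraries of a line and under 0.5 FPKM in both of the other, 143 genes were restricted to LM3 and 77 to RBE. Of these, 51 and 22 were listed at 0 in the other line, and 16 and 7 were above 100 FPKM on average. The X chromosome held 24 of the 143 and 7 of the 77, beside 535 of the 15930 tested genes. QPRT, which makes NAD from quinolinate and overlaps another gene, was at 164 and 139 FPKM in LM3 against 0.221 and 0.144 in RBE. IL13RA2, the decoy receptor of interleukin 13, was at 62.8 and 65.8 FPKM in LM3 against a listed 0 in RBE. UGT1A10, 1 of a group of glucuronosyltransferase genes with shared exons, was at 110.2 and 107 FPKM in LM3 against a listed 0 in RBE. Toward RBE was ADGRG1, an adhesion receptor, at 42.4 and 41.4 FPKM in RBE against 0.0233 and 0.0616 in LM3. LDOC1, an X-linked gene that regulates NF-kB signals, was at 39.4 and 37.5 FPKM in RBE against a listed 0 in LM3. These counts rest on values with no test, and the genes named here apart from LDOC1 were chosen after their values were seen.

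Shares of genes called varied among gene classes, and the differences between classes were not tested. Among lincRNAs 69.3% of 606 were called (237 higher in LM3, 183 in RBE), among antisense RNAs 55.9% of 780 and among protein-coding genes 59.1% of 12773. Among processed pseudogenes 48.6% of 510 were called, among unprocessed pseudogenes 51.4% of 107 and among transcribed unprocessed pseudogenes 53.4% of 221. The lincRNA AC079466.1 was at 202 and 212 FPKM in LM3 against a listed 0 in RBE. LINC00942 was at 34.98 and 32.9 FPKM in LM3 against 0.0337 and 0.0357 in RBE. MNX1-AS1 was at 8.54 and 8.11 FPKM in RBE against 0.0904 and 0 in LM3. The antisense RNAs HOXA-AS2 and GACAT2 differed in opposite directions. HOXA-AS2 was at 19.1 and 18.2 FPKM in LM3 against 0.158 and 0.239 in RBE. GACAT2 was at 48.4 and 45.4 FPKM in RBE against 0.712 and 0.738 in LM3. The strand setting was not stated, so reads of an antisense gene and of its partner may not be separate. Small RNA genes were called toward LM3 more often, 65 against 9 of 119 miRNA genes and 65 against 8 of 122 snoRNA genes. MIR221, the gene model of a miRNA hairpin, was at 5.46 and 6.08 FPKM in LM3 against 0.265 and 0.513 in RBE. Of 3 gene models on chromosome 10 named U8, a small nucleolar RNA, all listed at 0 in RBE, the highest was at 31.5 and 27.9 FPKM in LM3, the next at 13.2 and 11.8 and the lowest at 1.88 and 1.39. These are values of gene models in messenger RNA libraries and not of mature small RNAs. The RNAs named were chosen after their values were seen.

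Differences between the lines were uneven along the genome. Genes of chromosome 13 lay toward RBE, with 180 of 249 called higher in RBE (72.3%) and 12 in LM3 (median log2 difference -0.94). Within a transfection it was -1.001 for si-FENDRR and -0.94 for si-NC, and it was -1.05 over the 178 protein-coding genes without exon overlap. Chromosomes 10 and 5 followed, with medians of -0.44 and -0.30. Genes of the X chromosome lay toward LM3, with 317 of 535 called higher there (59.3%) and a median of 0.78, and chromosomes 3 and 7 had medians of 0.55 and 0.53. Over the other chromosomes the medians ran from -0.26 to 0.36. With each library set to the same sum or scaled by median-of-ratios, the median of chromosome 13 was -0.91 and -1.01, and that of the X chromosome 0.80 and 0.70. Neighbouring genes are not independent of each other, and these medians are a description with no test.

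**Figure D4:**
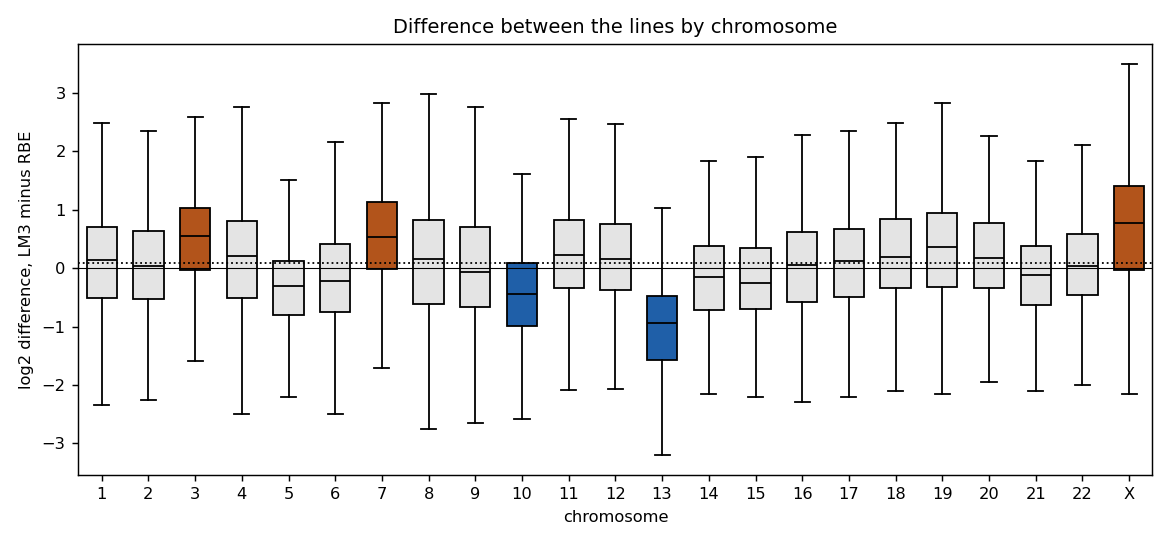
Boxes show the median and quartiles of the log2 difference (LM3 minus RBE) of the tested genes of each chromosome, with whiskers to 1.5 times the interquartile range and points beyond them not drawn; the dotted line is the median of all tested genes, 0.09. Chromosome 13 (median -0.94) is the lowest and the X chromosome (median 0.78) the highest; blue marks medians under -0.4 and orange medians over 0.5.

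Of 486 windows of 5 Mb with at least 10 tested genes, 3 of the 5 lowest lie on chromosome 13, from 75 to 80, 95 to 100 and 100 to 105 Mb, with medians from -1.61 to -1.28. They held CLDN10, a claudin of ion-transporting epithelium, at 18.4 and 18.1 FPKM in RBE against 0.0188 and 0.0328 in LM3. PCCA, of propionate metabolism, was at 25 and 25.5 FPKM in RBE against 2.82 and 3.86 in LM3. The exporter ABCC4 was at 20.3 and 19.8 FPKM in RBE against 3.28 and 2.54 in LM3. TBC1D4, which regulates glucose transporter traffic, was at 21.5 and 19.6 FPKM in RBE against 1.95 and 2 in LM3. The other 2 lie on chromosome 2 between 5 and 15 Mb, with ODC1, the first enzyme of polyamine synthesis, at 68.8 and 77.1 FPKM in RBE against 12.8 and 9.8 in LM3. Of the 5 highest, 3 lie on the X chromosome, from 50 to 55, 65 to 70 and 140 to 145 Mb, with medians from 1.63 to 2.54. All 11 tested genes from 65 to 70 Mb were called higher in LM3, among them MSN and EFNB1, the latter at 27.6 and 35.6 FPKM in LM3 against 5.2 and 4.94 in RBE. The window from 115 to 120 Mb of chromosome 7 (median 1.47) had 15 of 16 genes called toward LM3. There MET has as neighbours CAV2, a caveolin, at 669 and 561 FPKM in LM3 against 31.1 and 23.5 in RBE. TES, of focal adhesions, was at 222 and 192 FPKM in LM3 against 23.7 and 19.6 in RBE. With windows of 10 Mb, chromosome 13 held 4 of the 5 lowest and the X chromosome 4 of the 5 highest.

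Runs of neighbouring tested protein-coding genes were also found. Their members were under 0.1 FPKM in both libraries of 1 line and at 1 FPKM or more in both of the other. Genes under the filter could lie between members, so a run need not be unbroken. The longest held 8 genes on the X chromosome (49879948 to 53170914 of hg38) that were low in RBE. They were USP27X, CLCN5, GSPT2, MAGED1, FAM156B, FAM156A, TSPYL2 and KANTR. MAGED1, an adaptor of apoptosis, was at 98.9 and 106 FPKM in LM3 against a listed 0 in RBE. TSPYL2, which binds chromatin, was at 14.2 and 14.2 FPKM in LM3 against a listed 0 in RBE. GSPT2, a translation termination factor, was at 8.84 and 8.24 FPKM in LM3 against a listed 0 in RBE. In the other direction, 4 zinc finger genes on chromosome 19 (53066606 to 53193386) were listed at 0 in LM3, with ZNF160 at 2.9 and 3.31 FPKM in RBE and ZNF347 at 1.25 and 1.36 FPKM. A run on chromosome 11 (117427773 to 117877486) held DSCAML1, FXYD2, FXYD6-FXYD2 and FXYD6, of which the last 3 share exons. A shorter run of 3, chosen after its values were seen, was MTAP, CDKN2A and CDKN2B on chromosome 9 (21802543 to 22009363), all listed at 0 in both RBE libraries. MTAP, a salvage enzyme of methionine that overlaps another gene, was at 2.39 and 4.84 FPKM in LM3, and its call was lost without the RBE si-FENDRR library or the RBE si-NC library (adjusted p = 0.0744 and 0.0752 by limma). DNA copy number was not measured here.

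The difference between the lines was set against itself in the 2 transfections. At least 2-fold differences in the same direction with si-FENDRR and with si-NC were found in 2302 genes toward LM3 and 1725 toward RBE. In 23 genes the lines were at least 2-fold apart in opposite directions. Of these, 14 share exons with another model or, as AL132639.3 alone, have no annotation. Among annotated tested genes 16.9% share exons. The most abundant of the 23 was B2M, which encodes beta-2 microglobulin of MHC class I molecules. It was at 62.6 and 377 FPKM in LM3 against 238 and 36.5 in RBE. With si-NC it was therefore higher in LM3, and with si-FENDRR higher in RBE. VAPA, an anchor of the endoplasmic reticulum, was at 78.6 and 27.9 FPKM in LM3 against 24.8 and 59.7 in RBE. RALB, a small GTPase, was at 32.3 and 11.5 FPKM in LM3 against 9.29 and 27.5 in RBE. In both genes the si-FENDRR library was the higher of the pair in LM3 and the lower in RBE. Each such value rests on 1 library per line and transfection and was not tested.

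**Figure D5:**
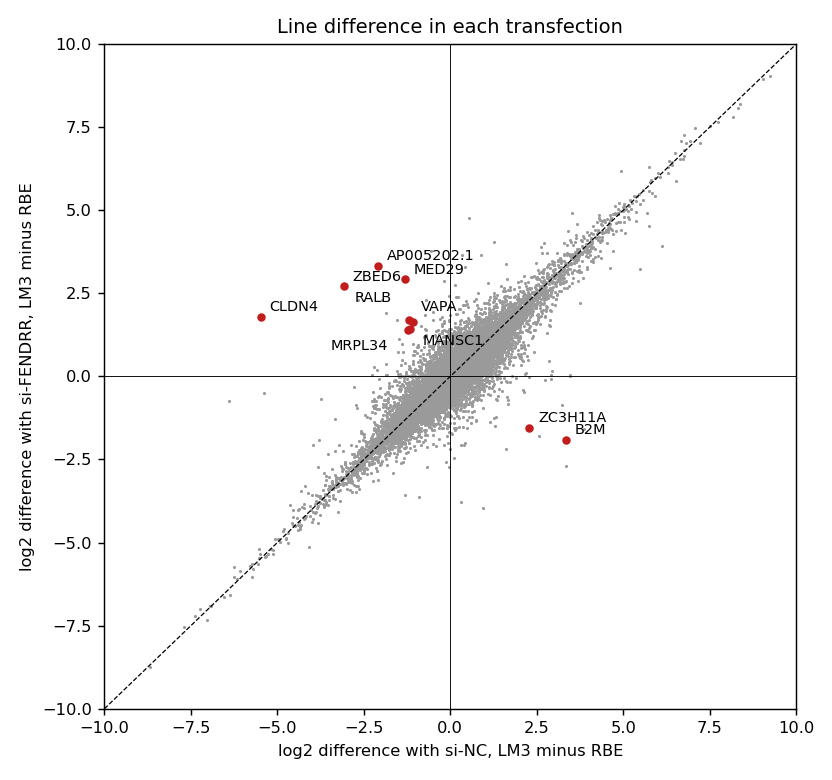
Each point is 1 tested gene, with the log2 difference between the lines (LM3 minus RBE) in the si-NC libraries on the horizontal axis and in the si-FENDRR libraries on the vertical axis; the dashed line marks equal differences. Most points lie along the line, and the 10 most abundant genes at least 2-fold apart in opposite directions are marked in red, with B2M and ZC3H11A below and to the right and the others above and to the left.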

How the data were processed

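Messenger RNA libraries of LM3 and RBE cells were analysed from the authors' deposited FPKM values per gene, in a table of 58174 genes by 4 libraries, and the 4 single-library files hold the same values. Per the submitters' processing notes, FastQC served to check the reads and HISAT2 to align them to hg38. The versions, the FPKM estimator, the annotation, the treatment of reads with several matches and the strand setting are not stated in the sources used here. FPKM keeps no read counts, so depth and intervals for counting error could not be given, and an exact 0 may be a failed estimate.

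Genes with at least 1 FPKM in any library were fitted with limma 3.58.1 (R 4.3.3) on log2(FPKM + 1), with line and transfection as terms and a trended prior variance, and p-values were adjusted by Benjamini-Hochberg over 15930 genes. The procedure was tested on simulated data. Gene types and exon overlaps came from GENCODE 29, which held 57836 of the genes, and promoters from RefSeq tables of GRCh38.p14, matched for 10291 tested protein-coding genes. Windows were 5 Mb long with at least 10 tested genes.

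The markers, the 44 gene lists and the comparisons were chosen with earlier results of these data known. Genes named were the 7 markers, the 20 furthest apart per direction, up to 4 per direction of each list and its most abundant member not called, members of extreme windows and runs, and the 10 most abundant genes with opposite directions. Another 39 genes were chosen after their values were seen. Alternatives were other scalings, pseudocounts of 0.1 and 5, other filters, no transfection term, a constant prior variance, and each library left out, with line as the only term. Restriction to protein-coding genes without exon overlap was added after seeing the data. Genes of the Y chromosome, and a few genes that these rules chose, are not reported here.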

Additional observations from a re-analysis of the deposited data

Results flagged for a closer look

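In 10 genes the lines were at least 2-fold apart in opposite directions under the 2 transfections, the most abundant of the 23 such genes. The change given for each is the log2 difference between the lines (LM3 minus RBE) with si-FENDRR less that with si-NC. With 1 library per line and transfection these changes were not tested. B2M (beta-2 microglobulin) had a change of -5.24, at 62.6 and 377 FPKM in LM3 against 238 and 36.5 in RBE. ZC3H11A (a zinc finger protein) had a change of -3.82, at 3.11 and 16.4 FPKM in LM3 against 11.01 and 2.6 in RBE. Both were higher in LM3 with si-NC and higher in RBE with si-FENDRR. The other 8 were the reverse. CLDN4 (a claudin) had a change of 7.28, at 179 and 0.515 FPKM in LM3 against 50.8 and 66.7 in RBE. VAPA (an anchor protein of the endoplasmic reticulum) had a change of 2.70, at 78.6 and 27.9 FPKM in LM3 against 24.8 and 59.7 in RBE. MRPL34 (a mitochondrial ribosomal protein) had a change of 2.60, at 48.3 and 18.1 FPKM in LM3 against 17.2 and 41.8 in RBE. AP005202.1 had a change of 5.43, at 22.4 and 16.5 FPKM in LM3 against 1.33 and 74.1 in RBE. RALB (a small GTPase) had a change of 2.89, at 32.3 and 11.5 FPKM in LM3 against 9.29 and 27.5 in RBE. MED29 (a Mediator subunit) had a change of 4.23, at 27.7 and 5.5 FPKM in LM3 against 2.79 and 15.1 in RBE. MANSC1 had a change of 2.61, at 15.7 and 4.25 FPKM in LM3 against 5.36 and 11.2 in RBE. ZBED6 (a repressor) had a change of 5.79, at 13.2 and 0.718 FPKM in LM3 against 1.18 and 13.6 in RBE. ZC3H11A and ZBED6 both share exons with another listed gene.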

How the results depend on the processing

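By the fit of all 4 libraries 5147 genes were called higher in LM3 and 4201 in RBE. Without the transfection term they were 5250 and 4393. Without 1 library, in fits that also lack that term, the counts ran from 2933 to 3946 and from 2640 to 3034, with 3162 and 2674 without the RBE si-FENDRR library and 2933 and 2640 without the RBE si-NC library. A rule of at least 2-fold gave 2791 and 2093. The share of called genes that were higher in LM3 was 55.1%, and 50.1% under median-of-ratios scaling. Genes at least 2-fold apart in both transfections numbered 4027, and 1707 with a pseudocount of 5. Those apart in opposite directions numbered 23, with 67 at a pseudocount of 0.1 and 6 at a pseudocount of 5. Over 475 named genes and their alternatives, 5825 of 6085 log2 differences kept direction and side of the threshold, 216 lost the call, 23 gained one and 21 changed sign. The genes with a change of sign had been not called, and their log2 differences with 1 library left out were PCK2 -0.11 to 0.18, FOXA2 -0.74 to 0.55, CLDN4 -5.29 to 1.61, HMGA1 -0.59 to 0.17, CBR1 -0.28 to 1.60, LCN2 -0.20 to 0.21, PFN1 -0.68 to 0.12, RPL23 -0.67 to 0.27, MT-CO2 -0.18 to 0.046, PCNA -0.23 to 0.13, IRF1 -0.48 to 0.15, RNF144A -0.039 to 0.16 and KIDINS220 -0.18 to 0.40. Under median-of-ratios scaling PCK2 was at -0.058 and LCN2 at -0.089. The highest window median was 2.54 with 5 Mb and 1.96 with 10 Mb. The cause of these shifts was not tested. No paired analysis was possible by replicate number because that number is 1 in every library. The fit of all 4 libraries matches the lines by transfection instead. Depth is unknown, so limits of detection could not be given.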
